A study of Homo sapiens with 12 samples.

Results

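Interferon-stimulated genes are genes whose transcription rises when a cell responds to interferon. A set of 49 of them was followed through 12 RNA sequencing libraries of a human multiple myeloma line. The set was listed by gene symbol, with earlier results of these data known. All 49 have a row in the table of 60504 features. Of these, 36 passed the filter on low values, which asked for at least 0.5 FPKM in at least 3 libraries, and 13 did not; 14391 genes of the whole table were tested. FPKM are fragment counts scaled to transcript length and to the depth of the library, so they allow levels of different genes to be compared. The cells of every group are TKO cells, which derive from KMS-11, a myeloma line with the t(4;14) translocation, and the labels give all of them the genotype WHSC1(+/-). WHSC1 is an earlier symbol of NSD2, whose protein places methyl groups on lysine 36 of histone H3 and is overproduced through t(4;14). D1240A cells carried an expression vector for NSD2 p.D1240A, F1295A cells one for NSD2 p.F1295A, WT cells one for NSD2 without a substitution, and TKO cells no vector. Each group had 3 libraries, numbered as biological replicates. The labels do not say whether the replicates came from separate cultures or whether a line is 1 clone, so the p-values measure the spread between these libraries, which may be technical. Cells carrying an empty vector were not analysed here. In each comparison with TKO, the vector, the NSD2 protein it encodes and other differences between the lines cannot be told apart. Between vector lines, a substitution cannot be told apart from other differences between the lines, among them the level of NSD2.

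Type I interferons bind the receptor chains IFNAR1 and IFNAR2 and activate the kinases JAK1 and TYK2, which phosphorylate transcription factors of the STAT family. STAT2 and IRF9 are subunits of the complex ISGF3, which binds interferon-stimulated response elements in promoters, while interferon gamma acts through IFNGR1 and IFNGR2 and on gamma-activated sites. The genes switched on encode sensors of viral RNA and DNA, the ubiquitin-like protein ISG15 and its enzymes, GTPases, nucleases and membrane proteins that block viral replication, and inhibitors that end the response. Many of them keep a low, tonic level without added interferon, and interferon alpha was long used as a treatment of myeloma.

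The labels were checked first. NSD2 measured 242, 259 and 250.3 FPKM in the D1240A libraries, 172, 161 and 159 in the F1295A libraries, 189, 188 and 195 in the WT libraries and 58.9, 58.6 and 62.7 in the TKO libraries. All vector libraries lay above all TKO libraries, and RNA from the vector was not told apart from that of the chromosomal gene. From the steps that single fragments leave in low FPKM values, the depth was estimated at 32750000 to 62250000 mapped fragments per library, so that 1 FPKM in a transcript of 2 kb stands for about 57.6 to 110 fragments. D1240A replicate 2 was the shallowest and stood apart, with 51.4% of its deposited FPKM sum in ribosomal RNA features against 0.133% to 0.995% in the other libraries. These features were left out before rescaling, and the results that turn on this library are given without it. Of 9 plasma cell markers 8 averaged at least 1 FPKM, with JCHAIN, XBP1, PRDM1, IRF4, TNFRSF17 and MZB1 well expressed, while SDC1 lay between 0.129 and 0.369 FPKM in the vector libraries and between 3.84 and 4.29 in the TKO libraries, and CD38 stayed between 0.1596 and 1.195 FPKM. Of the markers of plasmacytoid dendritic cells, a main source of interferon in blood, CLEC4C and LILRA4 were listed at 0 in all 12 libraries. TCF4, the other marker of that list, measured 36.0 to 39.6 FPKM in D1240A, 35.1 to 37.7 in F1295A, 32.4 to 35.6 in WT and 55.02 to 56.7 in TKO. No B cell, T cell or monocyte marker averaged 1 FPKM; of 3 markers each, PDGFRB for fibroblasts (0.443 to 3.04 FPKM, lowest in TKO) and EPCAM for epithelial cells (1.24 to 2.84 FPKM, highest in WT) did, while COL1A2 was listed at 0. The plasma cell markers summed to 3822 to 4146 FPKM in D1240A, 4636 to 5045 in F1295A, 4679 to 4913 in WT and 2336 to 2549 in TKO. JCHAIN alone, averaging 3146, 3913, 3788 and 1730 FPKM in the same order, made up most of each sum. XBP1, PRDM1, IRF4, TNFRSF17 and SLAMF7 also averaged lowest in TKO. MZB1 (218, 231, 240 and 257 FPKM), SDC1 and CD38 averaged highest there. The part of these marker differences in the results below was not tested.

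The members spanned a wide range of levels. By their mean over the 12 libraries, 3 members reached at least 50 FPKM, 16 lay between 10 and 50, 10 between 1 and 10, and 20 under 1 FPKM. BST2 (tetherin, a membrane protein that holds budding virus at the cell surface) was the highest at 131 FPKM, followed by the factor IRF2 (76.9), the ISG15-conjugating enzyme UBE2L6 (66.2), SAMD9L (42.2), the DNA sensor IFI16 (40.1) and ISG15 itself (36.3). Several genes that mark a full interferon response were close to 0. IFI44L was listed at 0 in all 12 libraries, and IFIT1, IFIT2, RSAD2, CMPK2, OAS3, GBP2, HERC6 and TRIM22 stayed between 0 and 0.331 FPKM. The other members that were not tested, MX2, DDX60, IFITM2 and IFITM3, reached at most 1.46 FPKM, in 1 library for IFITM2. Zeros among these genes can be failed estimates, so they are read as listed at 0 and not as absence.

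Summed over all 49 members, the level was 662.1, 662.5 and 662.0 FPKM in the D1240A libraries, 656.3, 650.5 and 645.5 in the F1295A libraries, 630.9, 625.3 and 626.5 in the WT libraries and 703.7, 700.2 and 709.2 in the TKO libraries. The sums of the 4 groups did not overlap. BST2 alone makes up a large share of each sum, so the sums mostly follow the abundant members. In bulk RNA, fewer cells that express a gene and less RNA per cell cannot be told apart.

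**Figure D1:**
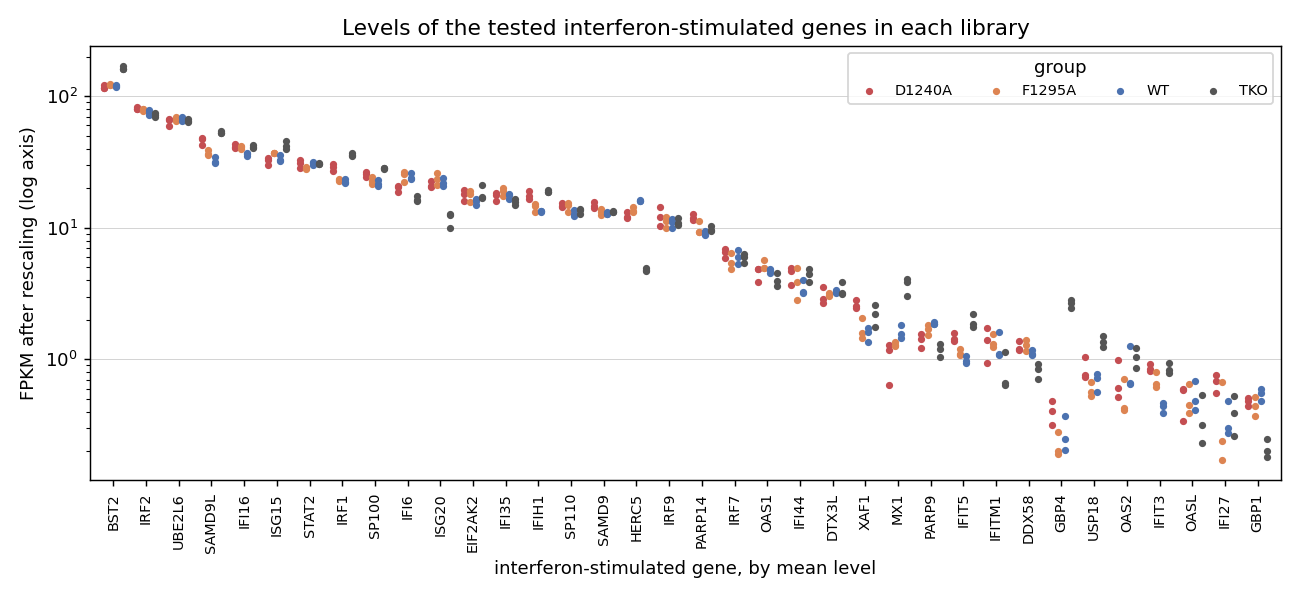
Levels of the 36 tested interferon-stimulated genes. Each point is 1 library, in FPKM after rescaling on a log axis, with genes ordered by their mean over 12 libraries and 3 points for each of D1240A, F1295A, WT and TKO; HERC5 stands lowest and GBP4 highest in TKO, while most other genes have their 4 groups close together.

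Members that lie side by side in the genome were not on to the same degree. SAMD9 and SAMD9L, paralogs 12031 bases apart on chromosome 7, averaged 13.6 and 42.2 FPKM. HERC6 and HERC5, 14005 bases apart on chromosome 4, averaged 0.105 and 11.8 FPKM. OAS1, OAS3 and OAS2 follow each other on chromosome 12 with gaps of 5129 and 5145 bases and averaged 4.61, 0.00845 and 0.781 FPKM. IFI44L lies 3650 bases from IFI44, which averaged 4.06 FPKM. In each of these clusters a member near 0 or well below its neighbour lay next to an expressed one. The IFITM genes, the IFIT genes and the GBP genes are close paralogs, and the annotated spans of PARP9 and DTX3L, of IFITM2 and IFITM1 and of CMPK2 and RSAD2 overlap; how shared fragments were split, and whether strand was used, the sources used here do not give.

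RefSeq promoters (GRCh38.p14, 250 bases before to 50 after the annotated start) were at hand for 39 of the 49 members. The core of the interferon-stimulated response element was searched as a pair of GAAA separated by any 2 bases, on both strands, and 23 of 39 member promoters held it (59.0%), against 3.57% of all 35116 promoters of the same length and 3.17% of 22199 protein-coding ones. The gamma-activated site was searched as TTC and GAA separated by any 3 bases, which reads the same on both strands, and 9 of 39 held it (23.1%), against 7.66% of all promoters and 6.79% of protein-coding ones. The 150 bases before the start are shown for HERC5 and ISG20, which rose, for ISG15, BST2 and IRF1, which fell, and for SAMD9L, which fell and has neither motif in its window; these changes are described further on. Letters in capitals mark bases inside a match, and each sequence is written 5′ to 3′ on the strand of its gene.
HERC5, chr4:88456969-88457118, plus strand: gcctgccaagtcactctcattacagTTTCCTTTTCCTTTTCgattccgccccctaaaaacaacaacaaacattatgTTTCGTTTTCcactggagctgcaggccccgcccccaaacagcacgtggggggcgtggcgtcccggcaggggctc
ISG20, chr15:88638866-88639015, plus strand: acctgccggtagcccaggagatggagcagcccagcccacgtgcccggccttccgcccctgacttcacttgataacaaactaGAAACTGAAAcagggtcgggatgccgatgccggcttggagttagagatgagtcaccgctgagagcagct
ISG15, chr1:1013347-1013496, plus strand: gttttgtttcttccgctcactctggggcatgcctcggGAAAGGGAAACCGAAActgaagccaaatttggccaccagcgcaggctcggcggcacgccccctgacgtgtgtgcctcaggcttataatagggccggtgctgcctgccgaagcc
BST2, chr19:17405631-17405780, minus strand: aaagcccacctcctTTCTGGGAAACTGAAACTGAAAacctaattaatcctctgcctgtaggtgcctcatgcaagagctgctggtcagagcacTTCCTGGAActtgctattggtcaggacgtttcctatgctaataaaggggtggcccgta
IRF1, chr5:132490774-132490923, minus strand: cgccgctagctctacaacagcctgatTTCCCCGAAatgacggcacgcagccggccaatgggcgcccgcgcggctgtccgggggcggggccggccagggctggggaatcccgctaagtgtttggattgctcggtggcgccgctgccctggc
SAMD9L, chr7:93148386-93148535, minus strand: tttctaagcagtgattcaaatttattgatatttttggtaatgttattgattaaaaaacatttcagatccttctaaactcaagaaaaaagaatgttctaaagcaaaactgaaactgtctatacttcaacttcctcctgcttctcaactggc
HERC5 held 3 response element cores, all on the other strand, with their first printed base at -125, -119 and -74 relative to the start, of which the first pair overlap. ISG15 held an overlapping pair at -113 and -107, and ISG20 held 1 at -69. In BST2 a gamma-activated site at -136 runs into an overlapping pair of response element cores at -130 and -124, and another gamma-activated site starts at -58. IRF1 held 1 gamma-activated site at -124 and no response element core. In this small set the same core stands in front of genes that rose and of genes that fell. A match describes letters in a window and is not a measured binding site.

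The 3 comparisons with TKO set each vector line beside TKO cells, which carry the same genotype label. Runs of neighbouring genes also differed from TKO in each vector line, with values below around MX1, IFNAR2, IRF5 and RNASEH2B. The cause was not tested. HERC5, the main ligase that attaches ISG15 to proteins, and ISG20, a nuclease that degrades viral RNA, were higher in each vector line than in TKO, while GBP4, MX1, IRF1, SAMD9L and BST2 were lower. In D1240A minus TKO, 8 tested members were called higher and 8 lower at an adjusted p under 0.05, that is 22.2% in each direction, beside 23.3% higher and 21.2% lower of all 14391 tested genes. In F1295A minus TKO, 10 were called higher (27.8%) and 11 lower (30.6%), beside 23.9% and 21.8% of all tested genes. In WT minus TKO, 6 were called higher (16.7%) and 13 lower (36.1%), beside 25.9% and 23.9%. The shares of D1240A lay near those of all genes, the lower shares of F1295A and WT lay above them and the higher share of WT below; whether such shares differ was not tested. The median log2 change of the tested members was 0.07 in D1240A, -0.07 in F1295A and -0.06 in WT, beside medians over all tested genes of 0.013, -0.001 and -0.005 in the same order. Members thus moved both ways in each vector line. These counts hold GBP4 and GBP1, which passed the filter on low values through the TKO libraries alone and through vector libraries alone. On the values as deposited, without rescaling, the median of all genes shifts to -0.12 in D1240A, -0.05 in F1295A and -0.03 in WT, and the calls became 3 higher and 11 lower in D1240A, 4 higher and 11 lower in F1295A and 5 higher and 11 lower in WT. The shares of all tested genes at that setting were 11% higher and 26.3% lower in D1240A, 14.8% and 18.5% in F1295A and 18.1% and 18.6% in WT. HERC5 and ISG20 were among those called higher in each. In D1240A, IRF2, IFI6, SAMD9, DDX58 and PARP14 were no longer called higher at that setting. The same held for IRF2, IFI35, IFITM1, OAS1, GBP1 and PARP9 in F1295A and for DDX58 in WT. In WT, IFI16 and XAF1 were no longer called lower. Where a gene is said not to be called with libraries left out, each of them was left out on its own. The 3 comparisons share the TKO libraries, so their values are given side by side and not as separate evidence.

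**Figure D2:**
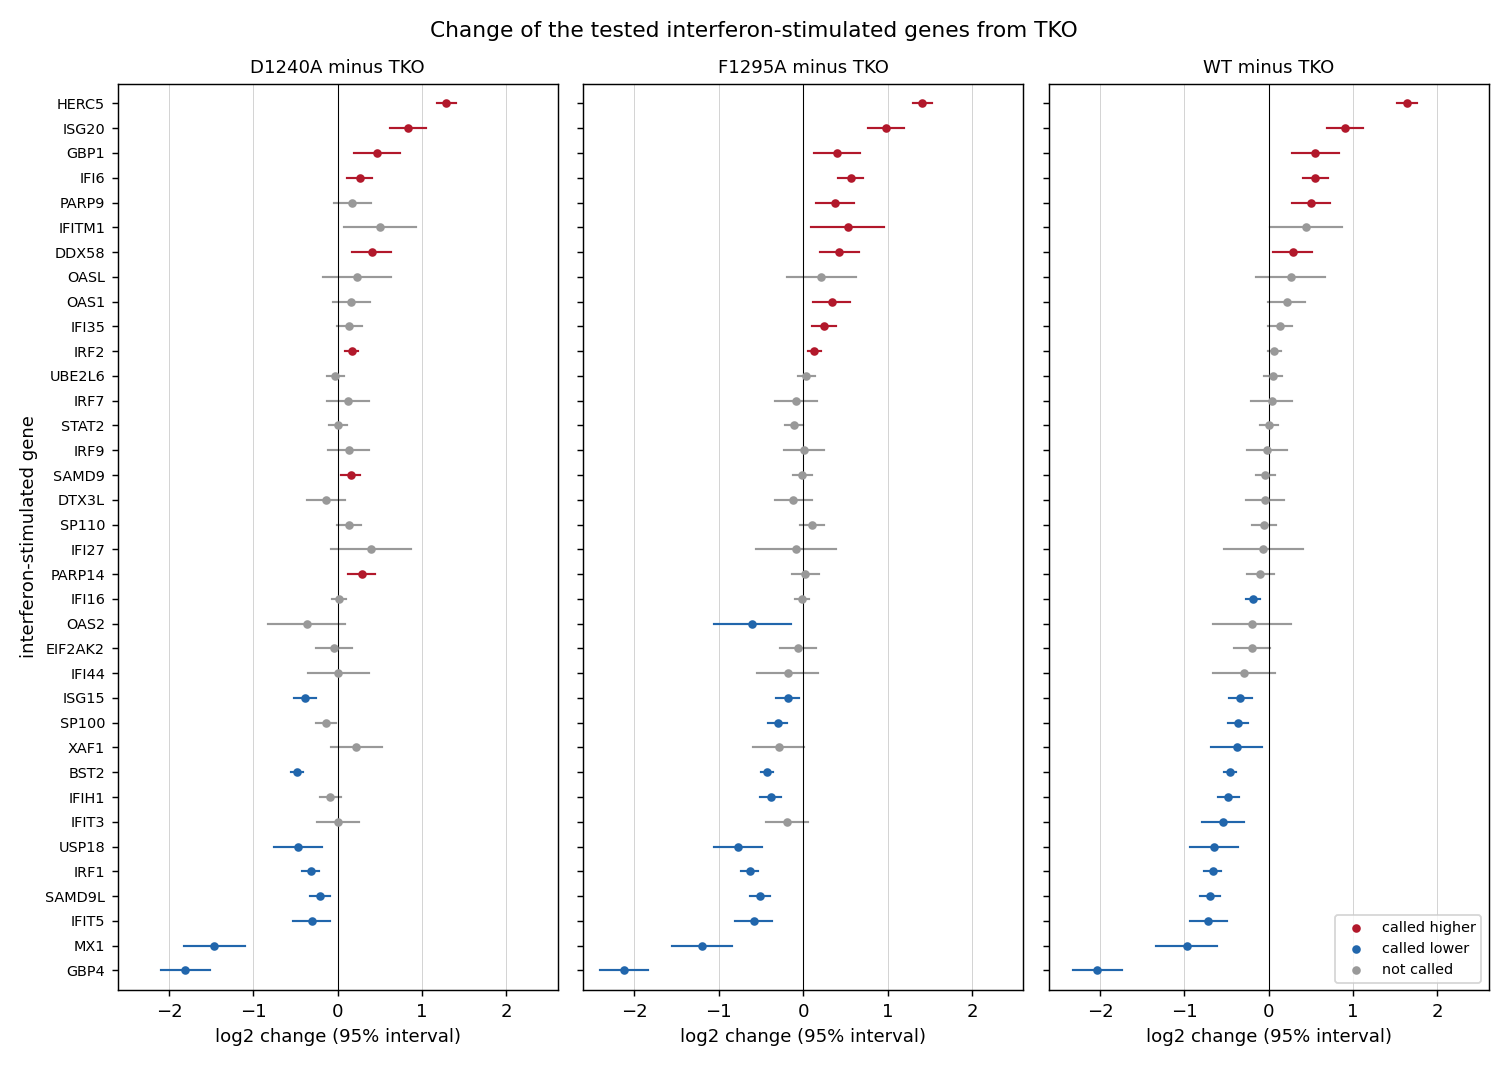
Log2 change from TKO of the 36 tested interferon-stimulated genes in D1240A, F1295A and WT, one panel each. Points are fitted changes on log2(FPKM + 0.5), bars are 95% intervals not adjusted for the number of genes, and red and blue mark genes called higher and lower; HERC5 heads each panel, at 1.28, 1.41 and 1.64, and GBP4 ends it, at -1.81, -2.12 and -2.03.

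Of the 5 transcription factors, IRF1 was called lower than TKO in each vector line, and IRF2 was called higher in D1240A and F1295A. IRF1 (ENSG00000125347, chromosome 5, 132481609 to 132490798, minus strand, GRCh38) activates interferon-stimulated promoters and is itself induced by interferon gamma. IRF1 measured 28.9, 30.5 and 27.1 FPKM in the D1240A libraries, 23.3, 22.8 and 23.3 in the F1295A libraries, 22.3, 23.7 and 21.98 in the WT libraries and 37.4, 35.1 and 35.8 in the TKO libraries. TKO was highest and D1240A next, and neither overlapped any other group, while F1295A and WT overlapped. The log2 change from TKO was -0.32 (adjusted p = 0.000156) in D1240A, -0.63 (adjusted p = 5.1e-07) in F1295A and -0.66 (adjusted p = 2.94e-07) in WT. IRF2 opposes IRF1 at many of the same promoters. IRF2 measured 79.5, 80.5 and 82.7 FPKM in the D1240A libraries, 79.7, 76.98 and 80.5 in the F1295A libraries, 72.7, 75.9 and 78.01 in the WT libraries and 69.7, 74.7 and 71.6 in the TKO libraries. Each D1240A and F1295A library lay above each TKO library, with log2 changes of 0.17 (adjusted p = 0.00258) and 0.13 (adjusted p = 0.00918), and WT, at 0.07 (adjusted p = 0.134), overlapped TKO. On the values as deposited neither change passed the threshold (adjusted p = 0.897 and 0.532).

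The other factors were not called in any of the 6 comparisons as fitted. STAT2 measured 28.4, 33.05 and 31.1 FPKM in the D1240A libraries, 28.7, 27.8 and 29.1 in the F1295A libraries, 30.2, 30.9 and 31.4 in the WT libraries and 30.9, 30.8 and 30.5 in the TKO libraries. STAT2, a subunit of ISGF3, overlapped between WT and TKO, and its log2 change in WT had a 95% interval of -0.10 to 0.11. Every F1295A library lay below every TKO library, with a STAT2 change of -0.11 (adjusted p = 0.0915) and an interval of -0.21 to -0.00, and with the median of the 50 tested genes around it removed it was called (adjusted p = 0.0101). IRF9 measured 10.3, 12.1 and 14.4 FPKM in the D1240A libraries, 11.3, 12.2 and 10.04 in the F1295A libraries, 11.7, 11.1 and 10.02 in the WT libraries and 11.8, 10.9 and 10.5 in the TKO libraries. For IRF9, the DNA-binding subunit of ISGF3, the D1240A libraries overlapped those of all other groups, and the interval in D1240A minus TKO was -0.11 to 0.37. IRF7 measured 6.96, 6.55 and 5.86 FPKM in the D1240A libraries, 5.37, 4.83 and 6.44 in the F1295A libraries, 6.84, 5.35 and 5.98 in the WT libraries and 6.33, 5.37 and 5.95 in the TKO libraries. The interval for IRF7, the factor that amplifies type I interferon production, was -0.12 to 0.37 in D1240A minus TKO. Changes anywhere within these intervals are compatible with the values, so a gene not called may still have changed.

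The sensors of viral nucleic acid did not move together. IFIH1 (MDA5), which detects long double-stranded RNA, was called lower in F1295A and WT, and DDX58 (RIG-I), which detects RNA with a triphosphate end, was called higher in each vector line. IFIH1 measured 16.7, 19.2 and 17.6 FPKM in the D1240A libraries, 15.1, 13.2 and 14.8 in the F1295A libraries, 13.5, 13.2 and 13.5 in the WT libraries and 18.8, 19.3 and 18.6 in the TKO libraries. D1240A overlapped TKO, and F1295A and WT lay below both. The log2 change from TKO was -0.09 (adjusted p = 0.256) in D1240A, -0.39 (adjusted p = 0.000185) in F1295A and -0.48 (adjusted p = 2.84e-05) in WT. DDX58 was much lower, averaging 1.26 FPKM in D1240A, 1.29 in F1295A, 1.12 in WT and 0.828 in TKO. Its log2 change was 0.41 (adjusted p = 0.00853) in D1240A, 0.43 (adjusted p = 0.00588) in F1295A and 0.29 (adjusted p = 0.0416) in WT, but it was not called in WT with F1295A replicate 1, or WT replicate 1, 2 or 3, or TKO replicate 1 or 2 left out (adjusted p = 0.0512 to 0.159). IFI16, a sensor of DNA in nucleus and cytosol, averaged 41.8 FPKM in D1240A, 40.9 in F1295A, 36.3 in WT and 41.3 in TKO and was called lower only in WT among these comparisons (log2 -0.19, adjusted p = 0.00121). EIF2AK2 (PKR), the kinase that halts translation on double-stranded RNA, averaged 17.8 FPKM in D1240A, 17.5 in F1295A, 15.9 in WT and 18.4 in TKO and was not called, with an interval of -0.41 to 0.01 in WT minus TKO. DDX60 stayed below the filter. DDX58 has a mean under 2 FPKM and was chosen after its values were seen, as were GBP4, MX1, USP18, GBP1, IFIT3, IFIT5, PARP9 and IFITM1 in what follows.

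The ISG15 system showed the largest rise of any member. ISG15 is a ubiquitin-like protein that is activated, carried by UBE2L6, attached to targets by HERC5 and removed by USP18. HERC5 (ENSG00000138646, chromosome 4, 88457117 to 88506163, plus strand) rose 2.44 to 3.12-fold on the log2(FPKM + 0.5) scale. HERC5 measured 13.3, 12.2 and 11.98 FPKM in the D1240A libraries, 14.4, 13.4 and 13.1 in the F1295A libraries, 15.9, 16.3 and 16.1 in the WT libraries and 4.78, 4.71 and 4.96 in the TKO libraries. Every vector library lay above every TKO library, and the WT libraries lay above all mutant libraries. The log2 change from TKO was 1.28 ± 0.052 (SE) in D1240A (adjusted p = 4.71e-09), 1.41 in F1295A (adjusted p = 1.81e-09) and 1.64 in WT (adjusted p = 3.79e-10). ISG15 itself went the other way. ISG15 measured 32.7, 33.95 and 29.9 FPKM in the D1240A libraries, 37.1, 37.3 and 37.1 in the F1295A libraries, 35.5, 32.6 and 32.2 in the WT libraries and 41.9, 39.5 and 45.8 in the TKO libraries. All vector libraries lay below all TKO libraries, and the log2 change was -0.39 (adjusted p = 0.000254) in D1240A, -0.18 (adjusted p = 0.026) in F1295A and -0.34 (adjusted p = 0.000637) in WT. In F1295A it was not called with F1295A replicate 1, 2 or 3, or TKO replicate 1 or 3 left out (adjusted p = 0.0508 to 0.109).

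UBE2L6 averaged 64.3 FPKM in D1240A, 67.2 in F1295A, 67.8 in WT and 65.5 in TKO and was not called, with 95% intervals of the log2 change of -0.13 to 0.07 in D1240A, -0.07 to 0.14 in F1295A and -0.05 to 0.15 in WT. USP18, which also binds IFNAR2 and dampens the response, was low. USP18 measured 0.763, 1.05 and 0.735 FPKM in the D1240A libraries, 0.668, 0.562 and 0.528 in the F1295A libraries, 0.566, 0.721 and 0.779 in the WT libraries and 1.23, 1.35 and 1.502 in the TKO libraries. Its log2 change was -0.47 (adjusted p = 0.0112) in D1240A, -0.78 (adjusted p = 0.00042) in F1295A and -0.65 (adjusted p = 0.00135) in WT, and it was not called in D1240A with TKO replicate 3 left out (adjusted p = 0.051). HERC6, the neighbour and paralog of HERC5, stayed between 0.00959 and 0.331 FPKM. Within this system the ligase thus stood higher in the vector lines while the modifier and its protease stood lower.

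Of the 3 tested GTPases, GBP4 and MX1 were lower and GBP1 was higher in each vector line. GBP4 (ENSG00000162654, chromosome 1, 89181148 to 89198932, minus strand), a guanylate-binding protein, measured 0.485, 0.406 and 0.318 FPKM in the D1240A libraries, 0.1995, 0.281 and 0.189 in the F1295A libraries, 0.205, 0.247 and 0.3699 in the WT libraries and 2.44, 2.82 and 2.71 in the TKO libraries. Every vector library lay below every TKO library. The log2 change was -1.81 (adjusted p = 5.7e-07) in D1240A, -2.12 (adjusted p = 1.32e-07) in F1295A and -2.03 (adjusted p = 1.56e-07) in WT, on a scale that understates the change of low genes. GBP4 passed the filter on low values through the TKO libraries alone, and with no filter it was called in each line too (adjusted p = 2.99e-06, 8.44e-07 and 9.52e-07). MX1 measured 1.28, 0.6400 and 1.17 FPKM in the D1240A libraries, 1.37, 1.28 and 1.26 in the F1295A libraries, 1.83, 1.46 and 1.56 in the WT libraries and 4.11, 3.01 and 3.88 in the TKO libraries. MX1 (MxA), which blocks the nucleocapsids of influenza and other viruses, lay lower in every vector library than in TKO, and D1240A replicate 2 was the lowest library. Its log2 change was -1.46 (adjusted p = 2.05e-05) in D1240A, -1.20 (adjusted p = 9.05e-05) in F1295A and -0.97 (adjusted p = 0.000393) in WT. The 50 tested genes around MX1 on chromosome 21 had medians of -0.28, -0.28 and -0.29 in the same comparisons, and with those removed the change was -1.18 in D1240A, -0.92 in F1295A and -0.68 in WT. GBP1, which lies in the same cluster as GBP4, moved the other way at a low level, averaging 0.479 FPKM in D1240A, 0.443 in F1295A, 0.545 in WT and 0.211 in TKO, with log2 changes of 0.46 (adjusted p = 0.0102) in D1240A, 0.41 (adjusted p = 0.0195) in F1295A and 0.56 (adjusted p = 0.00296) in WT; in F1295A it was not called with F1295A replicate 2, or TKO replicate 1 or 3 left out (adjusted p = 0.0582 to 0.0708). GBP1 reached 0.5 FPKM in vector libraries alone and passed the filter through them, and with no filter it was called in each line (adjusted p = 0.00447, 0.00883 and 0.00111). GBP2, between them on chromosome 1, and MX2, next to MX1, stayed below the filter.

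Among the other antiviral effectors ISG20 rose and BST2 and SAMD9L fell. ISG20 measured 22.5, 20.9 and 20.3 FPKM in the D1240A libraries, 21.1, 26.1 and 23.7 in the F1295A libraries, 23.99, 22.1 and 20.9 in the WT libraries and 12.7, 12.6 and 10.01 in the TKO libraries. The vector groups overlapped each other and lay above TKO, and the log2 change was 0.83 (adjusted p = 2.88e-05) in D1240A, 0.98 (adjusted p = 6.45e-06) in F1295A and 0.90 (adjusted p = 1.12e-05) in WT. BST2 (ENSG00000130303, chromosome 19, 17402939 to 17405648, minus strand) was the most abundant member. BST2 measured 122, 115 and 116 FPKM in the D1240A libraries, 123, 121 and 122 in the F1295A libraries, 122, 118 and 119.9 in the WT libraries and 162, 161 and 171 in the TKO libraries. The vector groups overlapped one another, and all their libraries lay below the TKO libraries. The change was -0.48 (adjusted p = 2.91e-07) in D1240A, -0.43 (adjusted p = 6.38e-07) in F1295A and -0.46 (adjusted p = 3.4e-07) in WT, small in size and precise, with a standard error of 0.032. SAMD9L, a restriction factor of poxviruses that also limits cell growth, followed the order TKO, D1240A, F1295A, WT. SAMD9L measured 42.6, 48.4 and 47.1 FPKM in the D1240A libraries, 39.2, 36.2 and 35.9 in the F1295A libraries, 31.8, 31.4 and 34.6 in the WT libraries and 52.3, 54.1 and 52.8 in the TKO libraries. No pair of groups overlapped, and the log2 change from TKO was -0.21 (adjusted p = 0.00913) in D1240A, -0.51 (adjusted p = 1.16e-05) in F1295A and -0.70 (adjusted p = 7.63e-07) in WT. Its paralog SAMD9 averaged 14.9 FPKM in D1240A, 13.2 in F1295A, 12.9 in WT and 13.3 in TKO; it was called higher in D1240A (log2 0.15, adjusted p = 0.0287), but not with D1240A replicate 2, or TKO replicate 1, 2 or 3 left out (adjusted p = 0.0587 to 0.103), and was not called in F1295A (-0.01) or WT (-0.04). TRIM22, RSAD2 (viperin) and CMPK2 stayed near 0.

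**Figure D3:**
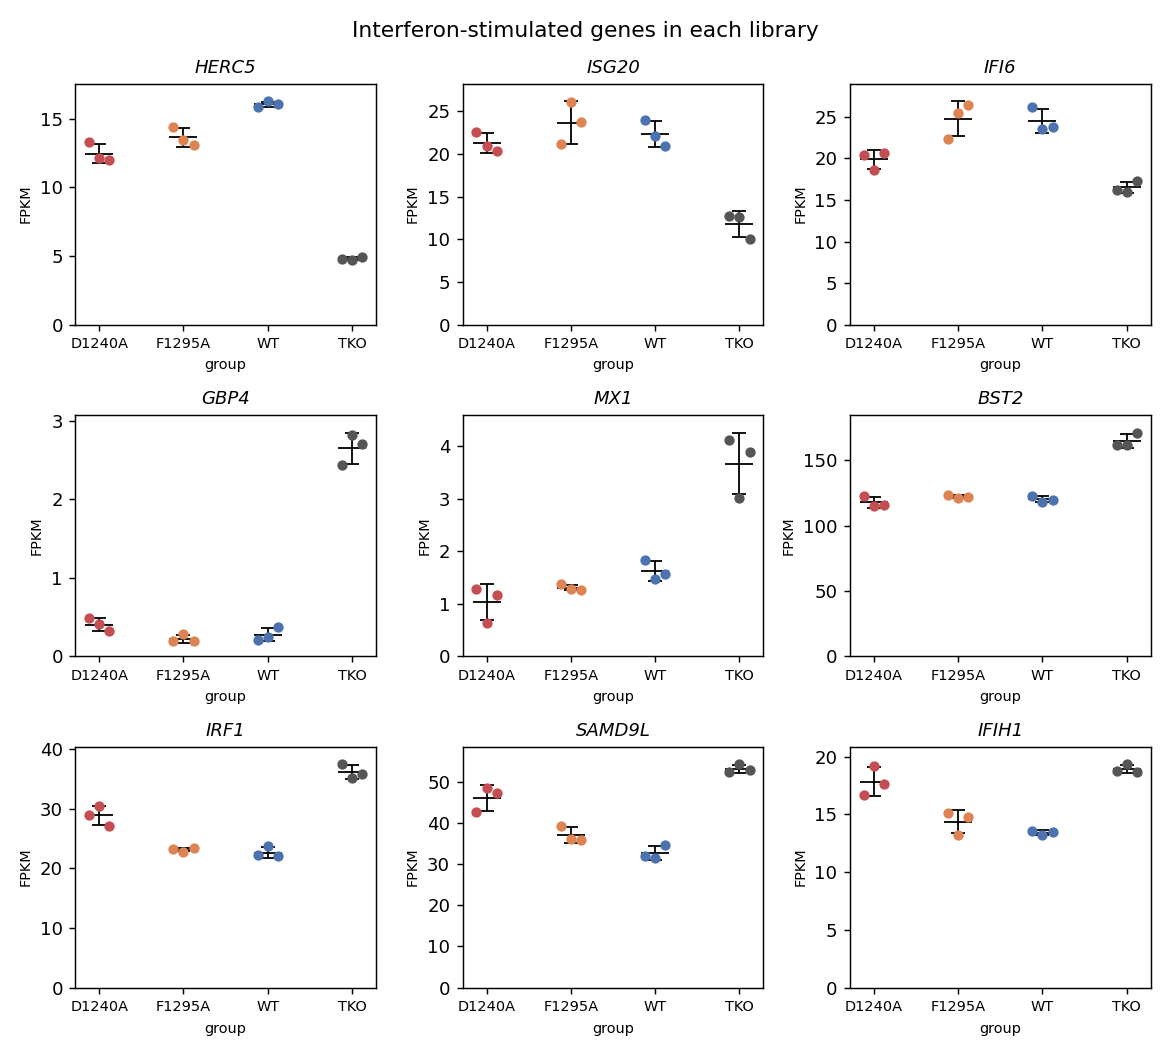
Levels of 9 interferon-stimulated genes in each library. Points are libraries in FPKM after rescaling, horizontal lines are group means and bars are SD (n = 3 libraries per group) for D1240A, F1295A, WT and TKO; HERC5, ISG20 and IFI6 lie lowest in TKO, GBP4, MX1, BST2, IRF1 and SAMD9L lie highest there, and D1240A lies between TKO and the other vector groups for IRF1 and SAMD9L.

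The IFIT, IFITM and OAS families were low, and 6 of their 11 members were tested. Of the 2 tested IFIT genes, 0 higher and 1 lower were called in D1240A, 0 higher and 1 lower in F1295A and 0 higher and 2 lower in WT against TKO. Of all tested genes, 21.2%, 21.8% and 23.9% were called lower and 23.3%, 23.9% and 25.9% higher, in the same order. Whether the shares of so few genes differ from these was not tested. IFIT proteins bind viral RNA that lacks host cap marks. IFIT5 averaged 1.47 FPKM in D1240A, 1.13 in F1295A, 0.989 in WT and 1.95 in TKO, with log2 changes of -0.31 (adjusted p = 0.0261) in D1240A, -0.59 (adjusted p = 0.000511) in F1295A and -0.71 (adjusted p = 0.000101) in WT; in D1240A it was not called with D1240A replicate 1 or 3, or TKO replicate 2 left out (adjusted p = 0.0675 to 0.118). IFIT3 averaged 0.859 FPKM in D1240A, 0.689 in F1295A, 0.431 in WT and 0.854 in TKO and was called lower in WT alone of these comparisons (log2 -0.54, adjusted p = 0.0018), with 0.01 (adjusted p = 0.97) in D1240A and -0.19 (adjusted p = 0.199) in F1295A. IFITM1, which blocks fusion of viruses with the membrane, averaged 1.36 FPKM in D1240A, 1.37 in F1295A, 1.27 in WT and 0.812 in TKO and was called higher in F1295A (log2 0.53, adjusted p = 0.0457), but not with D1240A replicate 3, or F1295A replicate 1, 2 or 3, or WT replicate 1 or 3, or TKO replicate 1 or 3 left out (adjusted p = 0.0534 to 0.146). OAS enzymes make the messenger that activates RNase L. OAS1 measured 4.86, 3.902 and 4.87 FPKM in the D1240A libraries, 4.95, 4.95 and 5.68 in the F1295A libraries, 4.76, 4.85 and 4.54 in the WT libraries and 4.52, 3.59 and 3.91 in the TKO libraries. Each F1295A library and each WT library lay above each TKO library, and D1240A overlapped WT and TKO. OAS1 was not called in WT (log2 0.215, adjusted p = 0.0935), but was with the median of the neighbouring genes removed (adjusted p = 0.0173). OAS1 was called higher in F1295A (log2 0.34, adjusted p = 0.015), but not with F1295A replicate 3, or TKO replicate 2 left out (adjusted p = 0.0619 to 0.0648). OAS2, at 0.705 FPKM in D1240A, 0.517 in F1295A, 0.864 in WT and 1.04 in TKO, was called lower in F1295A (log2 -0.60, adjusted p = 0.0334), but not with F1295A replicate 1 or 3, or TKO replicate 1 or 3 left out (adjusted p = 0.0767 to 0.11). OASL was not called in any comparison.

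Of the proteins first named for their induction by interferon, IFI6 was called higher in each vector line. IFI6 (G1P3) is a membrane protein of mitochondria and endoplasmic reticulum that restrains flaviviruses and cell death. IFI6 measured 20.4, 18.6 and 20.7 FPKM in the D1240A libraries, 22.4, 25.5 and 26.4 in the F1295A libraries, 26.2, 23.5 and 23.7 in the WT libraries and 16.2, 16.01 and 17.3 in the TKO libraries. All vector libraries lay above all TKO libraries, F1295A and WT overlapped, and D1240A lay below both. The log2 change was 0.26 (adjusted p = 0.00822) in D1240A, 0.57 (adjusted p = 3.07e-05) in F1295A and 0.55 (adjusted p = 3.23e-05) in WT. On the values as deposited IFI6 was not called in D1240A (adjusted p = 0.45). XAF1, a promoter of apoptosis, averaged 2.61 FPKM in D1240A, 1.698 in F1295A, 1.56 in WT and 2.19 in TKO and was called lower in WT (log2 -0.38, adjusted p = 0.0392), but not with WT replicate 1 or 3, or TKO replicate 1 or 2 left out (adjusted p = 0.0704 to 0.151). IFI35 measured 18.5, 17.8 and 15.97 FPKM in the D1240A libraries, 19.97, 18.99 and 17.5 in the F1295A libraries, 17.9, 17.6 and 16.6 in the WT libraries and 15.8, 14.9 and 16.6 in the TKO libraries. IFI35, a partner of the interferon-induced protein NMI, was called higher in F1295A (log2 0.25, adjusted p = 0.00879), whose libraries lay above all TKO libraries, and was not called in D1240A (0.14) or WT (0.14). IFI27 and IFI44 were not called in any comparison, and IFI27 spread within F1295A alone between 0.171 and 0.677 FPKM.

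Of the 5 nuclear body and ADP-ribosylation genes, all tested, 1 higher and 0 lower were called in D1240A, 1 higher and 1 lower in F1295A and 1 higher and 1 lower in WT against TKO. Among all tested genes, 23.3%, 23.9% and 25.9% were called higher and 21.2%, 21.8% and 23.9% lower, in the same order. Each share of the 5 genes lay below that of all tested genes. Whether shares of so few genes differ was not tested. SP100, a scaffold of PML nuclear bodies, measured 24.5, 25.8 and 26.7 FPKM in the D1240A libraries, 22.8, 21.4 and 24.4 in the F1295A libraries, 20.8, 21.6 and 23.2 in the WT libraries and 28.4, 28.3 and 28.2 in the TKO libraries. TKO lay above every vector library, with log2 changes of -0.14 (adjusted p = 0.0537) in D1240A, -0.30 (adjusted p = 0.000641) in F1295A and -0.37 (adjusted p = 0.000132) in WT. PARP9, whose protein works with DTX3L, averaged 1.41 FPKM in D1240A, 1.69 in F1295A, 1.89 in WT and 1.19 in TKO and was called higher in F1295A (log2 0.38, adjusted p = 0.00921) and WT (log2 0.50, adjusted p = 0.00141). DTX3L, which overlaps PARP9 head to head, averaged 3.05 FPKM in D1240A, 3.09 in F1295A, 3.28 in WT and 3.41 in TKO and was not called, so the pair that shares a start region did not give the same calls; the difference between them was not tested. PARP14 was called higher in D1240A (log2 0.28, adjusted p = 0.0071) and SP110 was not called.

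D1240A against WT compares vector lines with and without this substitution in NSD2. The RNA sensor IFIH1, the factor IRF1, SAMD9L, the ADP-ribosyl transferase PARP14, XAF1 and IFIT3 were higher in D1240A, by log2 changes of 0.34 to 0.60, and HERC5 was lower. In D1240A minus WT, 10 of the 36 tested members were called higher (27.8%) and 3 lower (8.33%), beside 8.22% and 10.9% of all tested genes, and the median was 0.11 beside 0.006. The difference of these shares was not tested. Without D1240A replicate 2, 8 were called higher and 2 lower, and the shares of all tested genes without it are not given here. NSD2 itself was higher in D1240A than in WT (log2 0.40, adjusted p = 5.29e-05), and its part in these differences was not tested. The values per library of IRF1, IFIH1 and SAMD9L given above did not overlap between D1240A and WT. Their log2 changes were 0.34 (adjusted p = 0.000455), 0.39 (adjusted p = 0.000823) and 0.49 (adjusted p = 0.000127). XAF1 measured 2.55, 2.44 and 2.84 FPKM in the D1240A libraries, 1.58, 1.45 and 2.07 in the F1295A libraries, 1.602, 1.72 and 1.35 in the WT libraries and 2.23, 2.57 and 1.76 in the TKO libraries. XAF1 was higher in each D1240A library than in each WT library, with a log2 change of 0.60 (adjusted p = 0.0113), and D1240A overlapped TKO. PARP14 measured 11.5, 11.98 and 12.6 FPKM in the D1240A libraries, 11.3, 9.36 and 9.37 in the F1295A libraries, 8.88, 8.99 and 9.45 in the WT libraries and 9.49, 10.3 and 9.58 in the TKO libraries. D1240A lay above all WT libraries (log2 0.39, adjusted p = 0.00358), and its lowest library lay above F1295A as well.

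IFIT3 (log2 0.55, adjusted p = 0.0061) and IFI16 (log2 0.20, adjusted p = 0.00293) were called higher too and, like IRF1, IFIH1, SAMD9L, XAF1 and PARP14, were called whichever single library was left out. Calls of IFIT5 (log2 0.41, adjusted p = 0.0164), SP100 (log2 0.23, adjusted p = 0.0122) and SAMD9 (log2 0.19, adjusted p = 0.0219) depended on single libraries. IFIT5 was not called with D1240A replicate 2, or WT replicate 2 or 3 left out (adjusted p = 0.0526 to 0.0559), SP100 with WT replicate 1 left out (adjusted p = 0.0572) and SAMD9 with D1240A replicate 2, or WT replicate 2 or 3 left out (adjusted p = 0.0693 to 0.0726). Of the genes called lower, HERC5 (log2 -0.35, adjusted p = 0.000786) was called whichever library was left out. IFI6 (log2 -0.29, adjusted p = 0.0114) was not called with WT replicate 1 left out (adjusted p = 0.0514), where HERC5 was the only member called lower. PARP9 (log2 -0.33, adjusted p = 0.0428) was not called with D1240A replicate 1 or 2, or F1295A replicate 1, or WT replicate 1, 2 or 3, or TKO replicate 1 or 2 left out (adjusted p = 0.0504 to 0.128). On the values as deposited, which carry the composition of D1240A replicate 2 and shift the median of all genes to -0.10, 3 members, IFIH1, IFIT3 and SAMD9L, were called higher and 2 lower, beside 1.72% and 9.40% of all tested genes at that setting.

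**Figure D4:**
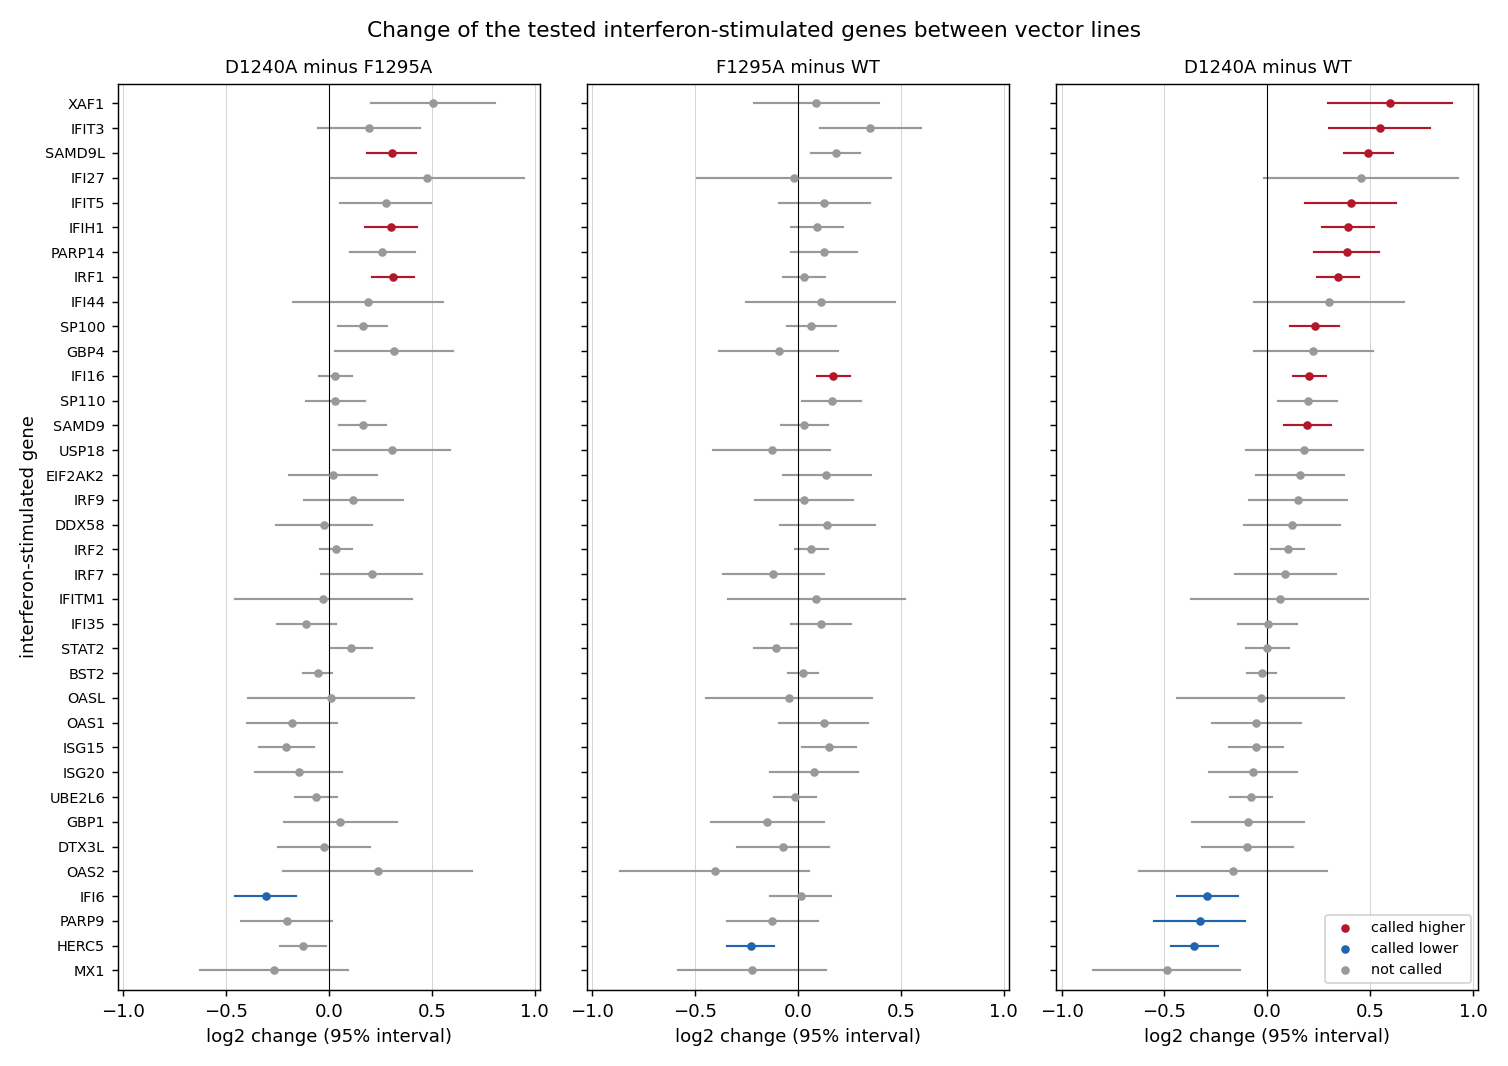
Log2 change of the 36 tested interferon-stimulated genes between the vector lines, for D1240A minus F1295A, F1295A minus WT and D1240A minus WT. Points are fitted changes, bars are 95% intervals not adjusted for the number of genes, and genes are ordered by D1240A minus WT, where XAF1 is highest at 0.60; in F1295A minus WT most intervals cross 0.

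F1295A against WT gave few differences. In this comparison 1 member was called higher, IFI16 (log2 0.17, adjusted p = 0.0316), and 1 lower, HERC5 (log2 -0.23, adjusted p = 0.0405), each 2.78% of the tested members, beside 0.896% higher and 1.81% lower of all tested genes. IFI16 measured 43.7, 40.6 and 41.2 FPKM in the D1240A libraries, 41.7, 41.2 and 39.8 in the F1295A libraries, 35.3, 37.1 and 36.3 in the WT libraries and 41.1, 42.4 and 40.5 in the TKO libraries. F1295A lay above WT and overlapped D1240A and TKO. IFI16 was not called with F1295A replicate 1, 2 or 3, or WT replicate 1, 2 or 3 left out (adjusted p = 0.0521 to 0.139). HERC5 was not called with F1295A replicate 2 or 3, or WT replicate 1, 2 or 3, or TKO replicate 1, 2 or 3 left out (adjusted p = 0.0539 to 0.132), and on the values as deposited no member was called. The precision differed with the level. For BST2 the log2 difference was 0.02 with a 95% interval of -0.05 to 0.10, for IRF1 0.03 (-0.07 to 0.13) and for ISG20 0.08 (-0.14 to 0.29), whereas low genes such as OAS2 (-0.86 to 0.05) had wide intervals.

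D1240A against F1295A compares the lines of both substituted proteins. NSD2 averaged 251 FPKM in D1240A and 164 in F1295A, and its part in the differences below was not tested. IRF1 (log2 0.31, adjusted p = 0.00374), SAMD9L (log2 0.31, adjusted p = 0.0104) and IFIH1 (log2 0.30, adjusted p = 0.0139) were called higher in D1240A, 8.33% of the tested members beside 3.00% of all genes. IFI6 was called lower (log2 -0.30, adjusted p = 0.0261), 2.78% beside 3.09%. For these genes no D1240A library overlapped an F1295A library. IFI6 was not called with D1240A replicate 2, or F1295A replicate 2 or 3 left out (adjusted p = 0.0888 to 0.0938), and IFIH1 was not called with F1295A replicate 2 left out (adjusted p = 0.0535). With only the D1240A and F1295A libraries in the fit no member was called, and IRF1 had an adjusted p of 0.0577. The difference of HERC5 was -0.13 (-0.24 to -0.01) and that of GBP4 0.32 (0.03 to 0.61).

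The ligands of the pathway were nearly silent. Of 22 interferon genes 14 were listed at 0 in every library, and only IFNL1, a type III interferon, passed the filter. IFNL1 measured 0.188, 0.431 and 0.318 FPKM in the D1240A libraries, 0.1995, 0.421 and 0.339 in the F1295A libraries, 0.274, 0.434 and 0.3699 in the WT libraries and 0.908, 1.19 and 1.25 in the TKO libraries. All vector libraries lay below the TKO libraries, with log2 changes of -0.997 (adjusted p = 0.000454) in D1240A, -0.98 (adjusted p = 0.000466) in F1295A and -0.91 (adjusted p = 0.000718) in WT. IFNL1 passed the filter through the TKO libraries alone, and with no filter it was called in each line (adjusted p = 0.000965, 0.000976 and 0.00138). IFNB1 reached at most 0.0998 FPKM and IFNG at most 0.0897 FPKM. No interferon gene apart from IFNL1 could be compared between groups.

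The receptor and kinase genes that were called against TKO were lower in the vector lines. Of 9 genes for interferon receptors and Janus kinases, all tested, 0 higher and 4 lower were called in D1240A, 0 higher and 5 lower in F1295A and 0 higher and 6 lower in WT relative to TKO. These are 0% and 44.4% of those tested in D1240A, 0% and 55.6% in F1295A and 0% and 66.7% in WT, beside 23.3% and 21.2% of all tested genes in D1240A, 23.9% and 21.8% in F1295A and 25.9% and 23.9% in WT. IFNGR2, the signalling chain of the interferon gamma receptor, changed most. IFNGR2 measured 9.502, 8.37 and 8.95 FPKM in the D1240A libraries, 7.84, 8.26 and 8.27 in the F1295A libraries, 7.33, 7.64 and 7.87 in the WT libraries and 22.8, 23.2 and 24.5 in the TKO libraries. Its log2 change was -1.35 (adjusted p = 4.71e-09) in D1240A, -1.48 (adjusted p = 1.81e-09) in F1295A and -1.57 (adjusted p = 8.13e-10) in WT. IFNAR2 measured 53.5, 56.1 and 56.8 FPKM in the D1240A libraries, 53.8, 52.9 and 54.8 in the F1295A libraries, 51.1, 52.4 and 50.5 in the WT libraries and 78.8, 78.3 and 78.9 in the TKO libraries. The type I receptor chains IFNAR2 and IFNAR1 lie beside IFNGR2 on chromosome 21, and the 50 tested genes around IFNAR2 had a median log2 change of -0.41, -0.41 and -0.40 in D1240A, F1295A and WT. With the median of each gene's own surroundings removed, IFNGR2 changed by -0.96, -1.08 and -1.18 and was still called, IFNAR2 by -0.09, -0.13 and -0.21, no longer called in D1240A (adjusted p = 0.0671), and IFNAR1, chosen here for its position, by -0.09, -0.05 and -0.02 and was not called. JAK1 measured 39.9, 39.02 and 39.4 FPKM in the D1240A libraries, 38.4, 36.6 and 33.8 in the F1295A libraries, 36.1, 37.3 and 36.2 in the WT libraries and 44.6, 49.5 and 51.2 in the TKO libraries. JAK1, a kinase shared by all interferon receptors, lay lower in every vector library than in TKO, with log2 changes of -0.29 (adjusted p = 0.000984) in D1240A, -0.41 (adjusted p = 6.17e-05) in F1295A and -0.40 (adjusted p = 6.95e-05) in WT.

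TYK2, the kinase bound to IFNAR1, was higher in D1240A than in F1295A and WT. TYK2 measured 98.9, 102 and 98.2 FPKM in the D1240A libraries, 73.2, 83.1 and 84.96 in the F1295A libraries, 75.4, 72.05 and 78.9 in the WT libraries and 117, 107 and 102 in the TKO libraries. F1295A and WT lay below TKO with log2 changes of -0.43 (adjusted p = 0.000112) and -0.52 (adjusted p = 2.17e-05), and D1240A, at -0.12 (adjusted p = 0.121), was not called. D1240A lay above F1295A by 0.31 (adjusted p = 0.0154), which was not called with D1240A replicate 2 left out (adjusted p = 0.0529). In D1240A minus WT, 3 higher and 0 lower of the 9 were called (33.3% higher, beside 8.22% of all tested genes), with TYK2 at 0.40 (adjusted p = 0.00104), IFNGR2 at 0.22 (adjusted p = 0.0167) and IFNAR2 at 0.11 (adjusted p = 0.025). On the values as deposited none of the 3 was called in that comparison (adjusted p = 0.0695 for TYK2, 0.554 for IFNGR2 and 0.941 for IFNAR2). IFNGR2 was not called with D1240A replicate 1, or WT replicate 1 left out (adjusted p = 0.0501 to 0.0718). IFNAR2 was not called with D1240A replicate 2 or 3, or WT replicate 1 or 3 left out (adjusted p = 0.0677 to 0.0912). In F1295A minus WT no gene of this list was called.

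Of 17 genes that sense nucleic acids and relay the signal, 14 were tested, and 4 higher and 8 lower were called in D1240A, 3 higher and 8 lower in F1295A and 3 higher and 7 lower in WT against TKO. Higher and lower calls made up 28.6% and 57.1% of those tested in D1240A, 21.4% and 57.1% in F1295A and 21.4% and 50% in WT, beside 21.2% to 25.9% of all tested genes in either direction. The genes with the smallest adjusted p were the kinase IKBKE (-0.39, -0.54 and -0.66 in D1240A, F1295A and WT), the Toll-like receptor adaptor MYD88 (-0.61, -0.56 and -0.58), the DNA-sensing adaptor STING1 (-0.54, -0.52 and -0.48) and the factor IRF5 (-0.34, -0.49 and -0.39), all called lower in each vector line. For IRF5 the surrounding genes had medians of -0.21, -0.23 and -0.21, and with those removed D1240A was not called (adjusted p = 0.148). IKBKE measured 45.6, 43.6 and 43.5 FPKM in the D1240A libraries, 38.4, 41.01 and 40.4 in the F1295A libraries, 35.2, 37.3 and 37.4 in the WT libraries and 55.5, 57.8 and 61.7 in the TKO libraries. Its vector libraries lay below TKO, and D1240A lay above F1295A and WT. Not all of the list fell, as its counts show.

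SOCS1, which blocks Janus kinases and is itself induced by interferon, differed between all pairs of vector lines. SOCS1 measured 21.9, 20.3 and 20.3 FPKM in the D1240A libraries, 10.8, 11.3 and 12.3 in the F1295A libraries, 8.28, 6.69 and 6.36 in the WT libraries and 25.2, 23.04 and 23.2 in the TKO libraries. D1240A lay just below TKO, F1295A well below it and WT lowest, with no overlap between groups. The log2 change from TKO was -0.19 (adjusted p = 0.0945) in D1240A, which was not called, -1.02 (adjusted p = 1.55e-06) in F1295A and -1.68 (adjusted p = 2.22e-08) in WT. D1240A exceeded WT by 1.49 (adjusted p = 1.25e-06) and F1295A by 0.84 (adjusted p = 0.000327), and F1295A exceeded WT by 0.66 (adjusted p = 0.0025). Of the 14 inhibitors tested, 2 higher and 4 lower were called in D1240A, 3 higher and 5 lower in F1295A and 3 higher and 6 lower in WT against TKO. Calls in each direction were 14.3% and 28.6% of those tested in D1240A, 21.4% and 35.7% in F1295A and 21.4% and 42.9% in WT, beside 21.2% to 25.9% of all tested genes in either direction. The dNTPase SAMHD1 changed by -0.62, -0.56 and -0.66, and the phosphatase PTPN6 rose by 0.31, 0.41 and 0.61. On the values as deposited PTPN6 was not called in D1240A (adjusted p = 0.241). RNASEH2B rose by 0.58, 0.57 and 0.47, while the genes around it on chromosome 13 had medians of 0.54, 0.51 and 0.49. With those medians removed RNASEH2B was not called in D1240A, F1295A or WT (adjusted p = 0.69, 0.505 and 0.807).

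**Figure D5:**
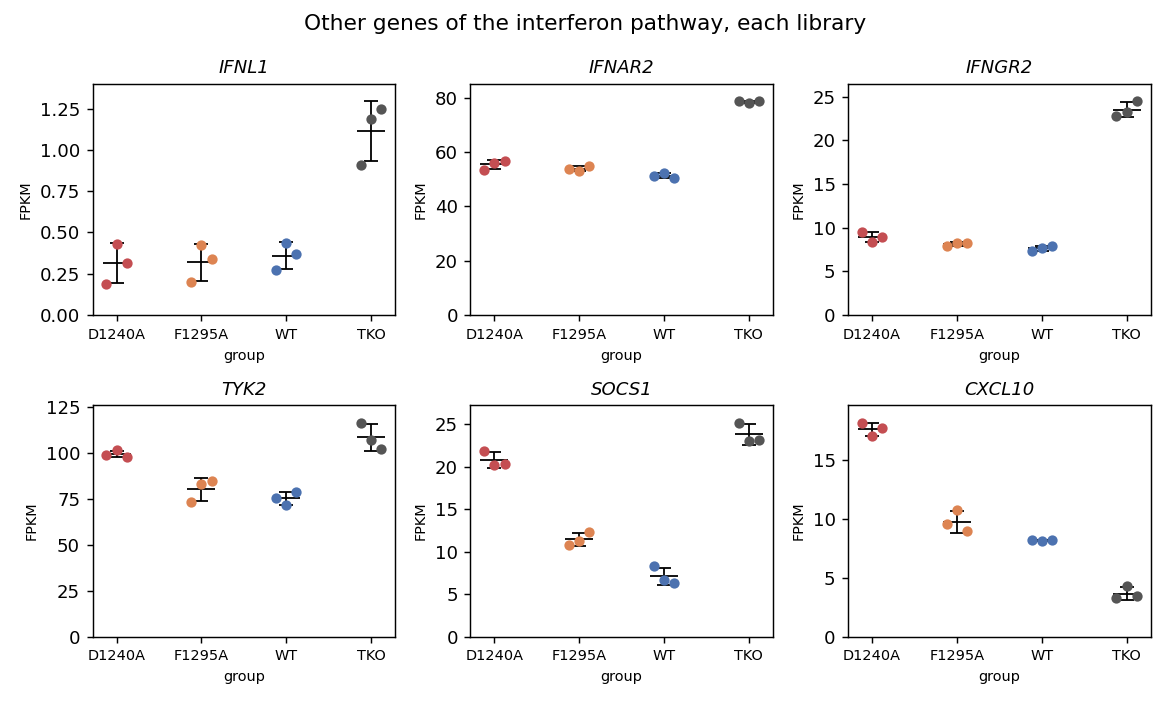
Levels of 6 other genes of the interferon pathway in each library. Points are libraries in FPKM after rescaling, lines are group means and bars are SD (n = 3 libraries per group) for D1240A, F1295A, WT and TKO; IFNL1, IFNAR2 and IFNGR2 are highest in TKO, SOCS1 decreases in the order TKO, D1240A, F1295A, WT, and CXCL10 is highest in D1240A and lowest in TKO.

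Of 45 further genes known to be induced by interferon, 40 were tested, and 13 higher and 10 lower were called in D1240A, 11 higher and 13 lower in F1295A and 13 higher and 15 lower in WT against TKO. That is, higher and lower, 32.5% and 25.0% of those tested in D1240A, 27.5% and 32.5% in F1295A and 32.5% and 37.5% in WT, beside 21.2% to 25.9% of all tested genes in either direction. CXCL10, a chemokine that attracts T cells and a widely used readout of interferon gamma, was higher in each vector line. CXCL10 measured 18.1, 17.00 and 17.6 FPKM in the D1240A libraries, 9.51, 10.8 and 8.94 in the F1295A libraries, 8.21, 8.12 and 8.15 in the WT libraries and 3.23, 4.28 and 3.44 in the TKO libraries. No pair of groups overlapped, and F1295A and WT lay closest, with a difference of 0.24 (adjusted p = 0.201) that was not called. The log2 change from TKO was 2.13 (adjusted p = 5.77e-09) in D1240A, 1.31 (adjusted p = 2.67e-07) in F1295A and 1.07 (adjusted p = 1.19e-06) in WT, and D1240A exceeded WT by 1.06 (adjusted p = 1.51e-05) and F1295A by 0.82 (adjusted p = 0.000456). The endosomal protein LAMP3 rose against TKO by 0.77, 0.99 and 1.48, having passed the filter through the vector libraries alone, and the tryptophan tRNA ligase WARS1 by 0.50, 0.68 and 0.74. The scramblase PLSCR1 changed by -0.52, -0.56 and -0.65 and was called lower in each line. In D1240A minus WT, 9 higher and 3 lower of the 40 were called (22.5% and 7.50%), beside 8.22% and 10.9% of all tested genes.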

How the data were processed

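RNA was measured by poly(A) RNA sequencing in 12 libraries, 3 for each of D1240A, F1295A, WT and TKO. Per the submitters' processing notes, Trimmomatic 0.36, FastQC 0.11.4, STAR 2.7.9a, RSEM 1.3.1, DESeq2 and GRCh38 were used; the role of each tool is not stated there, and neither the release of the gene annotation nor the strandedness is given in the sources used here. The authors deposited FPKM per gene and library in 1 table of 60504 features, and the unit was taken from the values together with these notes. Counts were not used.

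Ensembl IDs were matched to GENCODE 29 for coordinates (56996 matched). The 7089 structural RNA features were left out, and libraries were brought to 1 scale with a trimmed mean of their log2 ratios (30% trimmed at each end, genes averaging at least 1 FPKM); every printed FPKM is after rescaling unless said otherwise. limma 3.58.1 in R 4.3.3 was run on log2(FPKM + 0.5) with a mean trend, for genes at 0.5 FPKM or more in at least 3 libraries, with the 12 libraries in 1 model. P-values were adjusted by Benjamini-Hochberg over all 14391 genes and called under 0.05; limma's 95% intervals are not adjusted. Fold changes understate those of low genes. The fit was tested on simulated data, where 78% to 88% of genes changed 1.5-fold were recovered, depending on the comparison. Few genes were changed there, in 1 group and all above about 1 FPKM. The simulation therefore did not cover low members or comparisons with as many changes as those with TKO. Other steps used Python 3.11.15, numpy 2.4.6, pandas 2.3.3 and matplotlib 3.10.9.

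The members, the lists and the tests were chosen with earlier results of these data known. Values per library are given for the 5 members called with the largest change in each direction (mean of at least 2 FPKM, libraries separated), the tested factors, the most abundant member and up to 4 called genes of each pathway list; other names were chosen after their values were seen. Libraries of equal replicate number were not treated as paired, and the weak correlations between them are given below. The alternatives tried were other scalings, pseudocounts of 0.1 and 1, other filters, structural RNA kept, library weights, a replicate block, fits of the compared groups alone, a minimum of 1.5-fold, removal of the median of 50 neighbouring genes and each library left out.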

Additional observations from a re-analysis of the deposited data

Results flagged for a closer look

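In D1240A replicate 2, 51.4% of the deposited FPKM sum lay in ribosomal RNA features, a signal in data that the comparisons leave out; in the other 11 libraries, TKO included, these features held 0.133% to 0.995%. The log2 scaling factor, which is subtracted, was -0.30 for this library and -0.005 to 0.064 for the others, so rescaling raised its values. Without it, 9 members were called higher and 8 lower in D1240A minus TKO, 8 higher and 2 lower in D1240A minus WT, and 3 higher and 0 lower in D1240A minus F1295A. The shares of all tested genes without this library are not given here, so these counts are not set against them. Its part in the differences of the D1240A group beyond these values was not tested.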

How the results depend on the processing

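Of 75 member calls over the 6 comparisons, recomputed 1711 times in all, 1569 values stayed called in the same direction, 142 were no longer called and 0 reversed; 33 calls were lost under at least 1 alternative and 19 with 1 library left out. On the values as deposited, 3 members were called higher in D1240A minus TKO, 4 in F1295A minus TKO and 3 in D1240A minus WT, while F1295A minus WT and D1240A minus F1295A had 0 in both directions; the cause was not tested. With a minimum of 1.5-fold the counts were 2 higher and 2 lower in D1240A minus TKO, 2 and 6 in F1295A minus TKO, 2 and 6 in WT minus TKO, 1 and 0 in D1240A minus WT, and 0 in both directions for F1295A minus WT and D1240A minus F1295A. At this minimum, as in the fits described next and with single libraries left out, the shares of all tested genes are not given here. No direction is read from those counts. With the compared groups alone, which leaves fewer libraries, F1295A minus WT and D1240A minus F1295A had 0 and 0. With no filter on low values both had 0 members lower. With the medians of neighbouring genes removed, F1295A minus WT had 0 lower and D1240A minus F1295A had 5 higher.

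With single libraries left out, the counts ranged from 7 to 9 higher and 6 to 9 lower in D1240A minus TKO, 8 to 10 and 8 to 12 in F1295A minus TKO, 5 to 6 and 11 to 13 in WT minus TKO, 8 to 11 and 1 to 3 in D1240A minus WT, 0 to 1 in both directions in F1295A minus WT, and 2 to 4 and 0 to 1 in D1240A minus F1295A. With the replicate block, F1295A minus WT had 0 higher and 0 lower; the correlation of deviations between libraries of equal number lay between -0.053 and 0.085 over 18 pairs, none over 0.1, although 9 of 12 libraries correlated best with their own number. Among pathway genes, RNASEH2B in WT minus TKO turned to -0.024 with the medians of neighbouring genes removed, and in D1240A minus WT IFNAR2 turned to -0.011 on the values as deposited.

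With 3 libraries a group, small changes of members near 1 FPKM could not be resolved, and 13 members were too low to test. FPKM keep no library-wide amount of RNA, so a change in total RNA per cell could not be measured.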

Other observations

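Members with and without an interferon-stimulated response element core in their promoter window were set side by side as a description, with no test. Of the 31 tested members with a RefSeq promoter, 18 held the core and 13 did not. The median log2 change of those with the core was 0.01 in D1240A minus TKO, -0.10 in F1295A minus TKO and -0.15 in WT minus TKO. For those without it the medians were 0.13, 0.01 and -0.02 in the same order. In D1240A minus WT the medians were 0.11 with the core and 0.15 without it. The members share libraries, and several share a locus or a promoter region, so they are not independent.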
